A study of Homo sapiens with 4 samples.

Results

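The MAGE-A family was examined in HML58-3 cells, a derivative of the human colon cancer line HCT116 that carries a luciferase reporter driven by a methylated marker promoter. The members are MAGEA1, MAGEA2, MAGEA3, MAGEA4, MAGEA6, MAGEA8, MAGEA9, MAGEA10, MAGEA11 and MAGEA12, 10 genes in all, taken as every probe whose RefSeq accession belongs to one of these symbols. Of them, 8 genes had a probe, 9 probes in all, among 25006 named genes and 58201 probes of the array. No probe carried an accession of MAGEA2 or MAGEA3. The cells were mock-treated or treated with 1 μM of decitabine (DAC), OR-2003 or OR-2100, and every treatment was started on day 1 and ended with collection on day 5. OR-2003 and OR-2100 are prodrugs that release DAC, and the 4 conditions share the same engineered reporter line. The sources do not say what the mock treatment held. Expression was read on 4 one-colour Agilent arrays, 1 for each treatment, and without replicates no test between treatments was made.

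MAGE-A genes encode intracellular proteins that share the MAGE homology domain, through which they bind ubiquitin ligases and change the proteins these ligases act on. In healthy adults they are transcribed mainly in germ cells of the testis, and many tumours transcribe them again, for which reason their peptides are used as targets of cancer immunotherapy. In somatic cells their promoters are methylated. DAC is incorporated into DNA, traps the DNA methyltransferases, and is known to switch such genes on in cultured cells.

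The genes lie together at the distal end of the long arm of chromosome X. Their promoters share a short element, which is shown here because it is a feature that the choice of the genes did not use. The 300 bases around each annotated start (250 before it and 50 after it) were taken from RefSeq, build GRCh38.p14, and were found for 8 of the 10 members, all but MAGEA1 and MAGEA10, in 14 windows. The stretches of the 6 measured genes with a window run 5′ to 3′ on the strand of the gene. They begin 58 bases before the capitals and end at the annotated start, except in MAGEA6, where the stretch stops 25 bases past the motif. The capitals mark the motif GGATGTGA with the 2 bases that precede it. MAGEA11 is at chrX:149711987-149712059, MAGEA9 at chrX:149781852-149781929, MAGEA8 at chrX:149881111-149881182, MAGEA4 (the first of its 5 starts) at chrX:151912394-151912473 and MAGEA12 (the first of its 2 starts) at chrX:152733685-152733756, all on the plus strand. MAGEA6 is at chrX:152769743-152769835 on the minus strand.
MAGEA11: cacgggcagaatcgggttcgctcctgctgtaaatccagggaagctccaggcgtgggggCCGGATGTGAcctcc
MAGEA9: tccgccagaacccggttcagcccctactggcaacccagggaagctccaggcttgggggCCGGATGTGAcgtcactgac
MAGEA8: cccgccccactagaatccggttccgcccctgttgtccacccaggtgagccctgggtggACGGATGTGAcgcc
MAGEA4: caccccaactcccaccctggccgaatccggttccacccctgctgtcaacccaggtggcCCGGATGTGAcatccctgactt
MAGEA12: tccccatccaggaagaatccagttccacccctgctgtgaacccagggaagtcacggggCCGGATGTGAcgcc
MAGEA6: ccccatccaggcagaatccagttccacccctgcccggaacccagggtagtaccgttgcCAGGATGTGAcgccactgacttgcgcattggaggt

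The motif GGATGTGA was the longest run of letters shared by all 14 member windows, so its presence in 14 of 14 follows from that choice, and searched on both strands it was present in 1.16% of all 35116 windows. Its most frequent longer form with 2 bases before it, CCGGATGTGA, which contains the shorter motif, was present in 11 member windows of 5 genes and in 0.120% of all windows. This form was also picked from the member windows, so its count there depends on that choice. The 2 windows of MAGEA12 hold the same site, as do the 2 of MAGEA2, and all windows include those of the members. MAGEA8 and MAGEA6 lack the longer form. The capitals hold 1 CG dinucleotide, the site of DNA methylation, in MAGEA8 and in the 4 genes above with the longer form, and 0 in MAGEA6. The motif ended 4 bases before the start in MAGEA8, 4 bases before the first and 109 bases before the second in MAGEA12, 5 bases in MAGEA11, 10 bases in MAGEA9, 12 bases in MAGEA4 and 78 bases in MAGEA6. ETS factors are known to bind DNA around a GGA core, and a match of letters is no evidence that a factor binds there. The member windows held 9 to 21 CG dinucleotides with a median of 14, and the median of all windows was also 14. The window of MAGEA3 was identical to that of MAGEA6, that of MAGEA2 to that of the near copy MAGEA2B, and that of MAGEA9 to that of MAGEA9B. The motif was not particular to the members. The windows of the adjacent genes CSAG1 and CSAG3, which overlap those of MAGEA12 and MAGEA2, held it with its longer form on the opposite strand. Those of the divergent transcripts MAGEA3-DT and MAGEA6-DT held the shorter motif. Probe sequences were not used here, so signal from near-identical copies cannot be separated, and a probe named for 1 copy may also have bound RNA of another.

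Where 4 values follow each other, the first is for mock and the next are for DAC, OR-2003 and OR-2100, and 3 values are for the drugs in the same order. Levels are log2 signal intensities relative to the 75th percentile over all gene probes on the array, which is at 0, and the methods of the study take a level of -1 or more as positive expression. A gene is called induced here where it was at least 2-fold higher on the drug array than on the mock array and reached -1 on the drug array. All 9 member probes were well above background on all 3 drug arrays and were lowest on the mock array. DAC induced 8 of the 8 measured genes (background 5.77% of all named genes), OR-2003 induced 8 (background 5.89%) and OR-2100 induced 7 (background 5.81%). The 7 genes induced by all 3 drugs stand beside a background of 5.27%. By probe, 9, 9 and 8 of 9 were induced by the single drugs (backgrounds 3.44%, 3.53% and 3.50%), and 8 by all 3 drugs (background 3.13%). The median log2 difference of the 8 genes from the mock array was 4.60 with DAC, 4.43 with OR-2003 and 4.67 with OR-2100, where the medians over all named genes were -0.12, -0.093 and -0.23. With mock values raised to the background limit of the arrays, the member medians were 4.51, 4.34 and 4.58. In a bulk sample, a few cells with much of an RNA and many cells with little of it cannot be told apart.

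**Figure D1:**
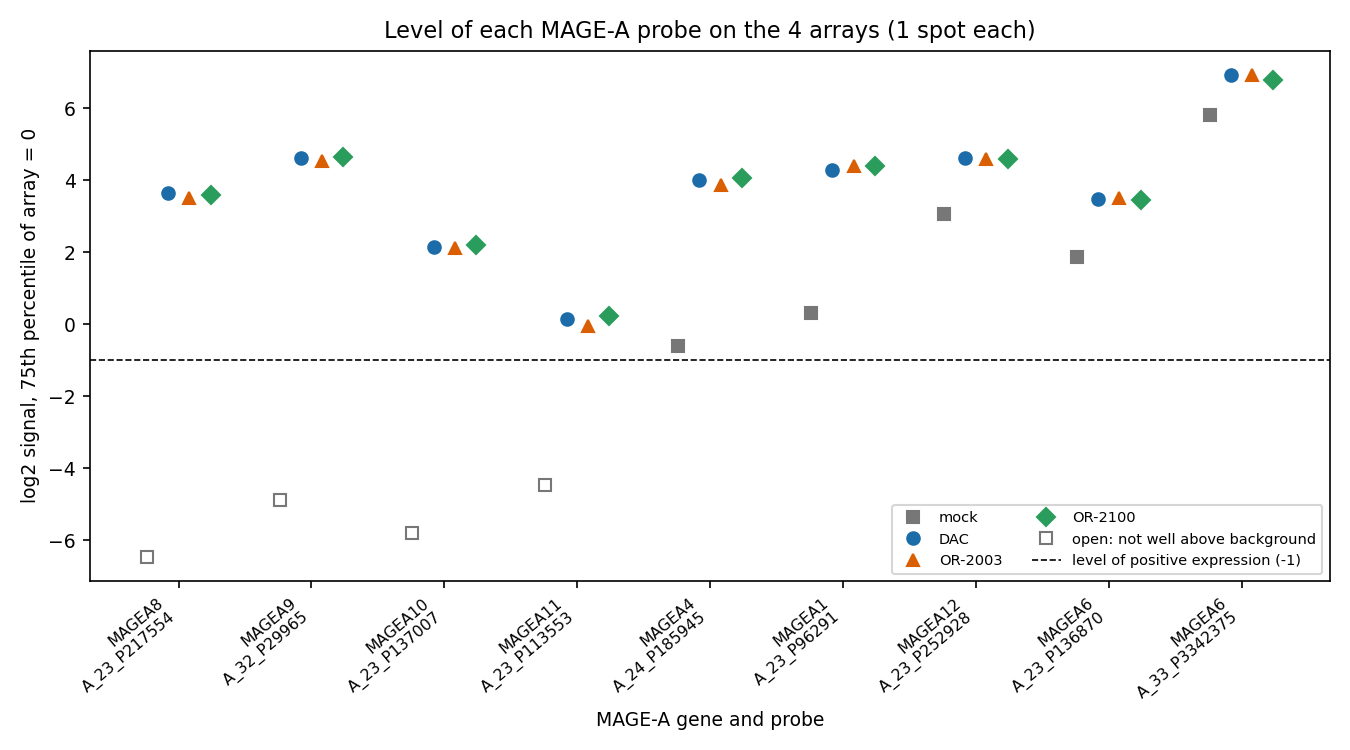
Level of each of the 9 MAGE-A probes (log2 signal, 75th percentile of the array = 0) on the mock, DAC, OR-2003 and OR-2100 arrays, 1 spot per point, with the level of positive expression (-1) as a dashed line. MAGEA8, MAGEA9, MAGEA10 and MAGEA11 were not well above the background of the mock array (open squares), and the 3 drug arrays lay within 0.29 of each other for every probe.

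In mock-treated cells the family was not uniformly silent. Probes of MAGEA8, MAGEA9, MAGEA10 and MAGEA11 were not well above background, while those of MAGEA1, MAGEA4, MAGEA6 and MAGEA12 already stood at -1 or more. The members are described in these groups, first those without measured signal on the mock array. For these, a fold is given as a lower bound, the level on the drug array against the higher of the own level of the probe on the mock array and -4.29, which was the lowest level of any probe well above background there.

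MAGEA8 (NM_005364, probe A_23_P217554) was without measured signal in mock-treated cells and well expressed with every drug. Its signal intensity was 1.72 in mock-treated cells, 2182 with DAC, 1887 with OR-2003 and 2112 with OR-2100, which gave levels of -6.47, 3.63, 3.51 and 3.59. The gene was thus at least 241-fold higher with DAC, 222-fold with OR-2003 and 234-fold with OR-2100. The values with the drugs were all far from the mock value and close to each other.

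MAGEA9 (NM_005365, A_32_P29965), which has the near copy MAGEA9B with an identical promoter window, had intensities of 5.15, 4348, 3872 and 4353. Its levels were -4.89, 4.62, 4.54 and 4.63. These were at least 481-fold, 454-fold and 483-fold higher than the mock value, the largest bounds among the 4 genes. The DAC and OR-2100 arrays differed by 0.0063 on the log2 scale.

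MAGEA10 (NM_001011543, A_23_P137007), a source of tumour antigens recognised by cytotoxic T cells, had intensities of 2.72 with mock and of 784, 724 and 813 with the drugs. Its levels were -5.81, 2.15, 2.12 and 2.21. It was at least 86.7-fold, 84.9-fold and 90.2-fold higher with the 3 drugs. A read-through transcript of the same locus (LOC100533997, MAGEA10-MAGEA5) had 3 probes, and none was induced. Of these, A_33_P3405514 was well above background on the drug arrays only, at levels of -3.87, -3.92 and -3.93, at least 1.34-fold, 1.29-fold and 1.28-fold higher than mock.

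MAGEA11 (NM_001011544, A_23_P113553) gave the lowest bounds of the 4. Its intensities were 6.89, 194, 159 and 206, and its levels were -4.47, 0.14, -0.06 and 0.23. It was at least 21.5-fold, 18.7-fold and 22.9-fold higher. The spread of 0.29 between its drug arrays was the widest of the family. When arrays were scaled to the 75th percentile of the probes well above background, MAGEA11 remained higher than mock but under -1 on the drug arrays, and was no longer called.

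MAGEA4 and MAGEA1 were at low positive levels in mock-treated cells. MAGEA4 (NM_002362, A_24_P185945), a target of engineered T cells that also binds the ubiquitin ligase RAD18, had intensities of 100 with mock and of 2822, 2406 and 2913 with the drugs. Its levels were -0.60, 4.0, 3.86 and 4.05, so that it was 24.3-fold, 22.0-fold and 25.2-fold higher. RAD18 had differences of 0.07, 0.15 and -0.14. MAGEA1 (NM_004988, A_23_P96291), the gene of the first human tumour antigen found with T cells, had intensities of 188 with mock and of 3453, 3480 and 3676 with the drugs. Its levels were 0.31, 4.29, 4.39 and 4.39, and its differences of 3.99, 4.08 and 4.08 correspond to 15.8-fold, 16.9-fold and 16.9-fold. For both genes, every drug array was well separated from the mock array and the drug arrays lay within 0.20 of each other.

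MAGEA12 and MAGEA6 were well expressed before treatment and differed least. MAGEA12 (NM_005367, A_23_P252928) had intensities of 1272, 4344, 3980 and 4190. Its levels were 3.06, 4.62, 4.58 and 4.58, and it was 2.95-fold, 2.87-fold and 2.86-fold higher with the drugs. MAGEA6 (NM_175868), whose product with that of MAGEA3 binds the ubiquitin ligase TRIM28 and directs it against AMPK, had 2 probes. The probe with the higher mean signal, A_33_P3342375, had intensities of 8564, 21170, 20192 and 19277, levels of 5.81, 6.91, 6.92 and 6.78, and folds of 2.14, 2.16 and 1.95. This value of 1.95 kept MAGEA6 out of the genes induced by OR-2100. Its second probe, A_23_P136870, had levels of 1.86, 3.49, 3.51 and 3.44 and was 3.09-fold, 3.14-fold and 2.99-fold higher, which passed with all drugs. The call of MAGEA6 for OR-2100 therefore rests on the choice of probe. It also passed after normexp background correction and after quantile normalization, and with each array scaled to its median the brighter probe failed with all 3 drugs.

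**Figure D2:**
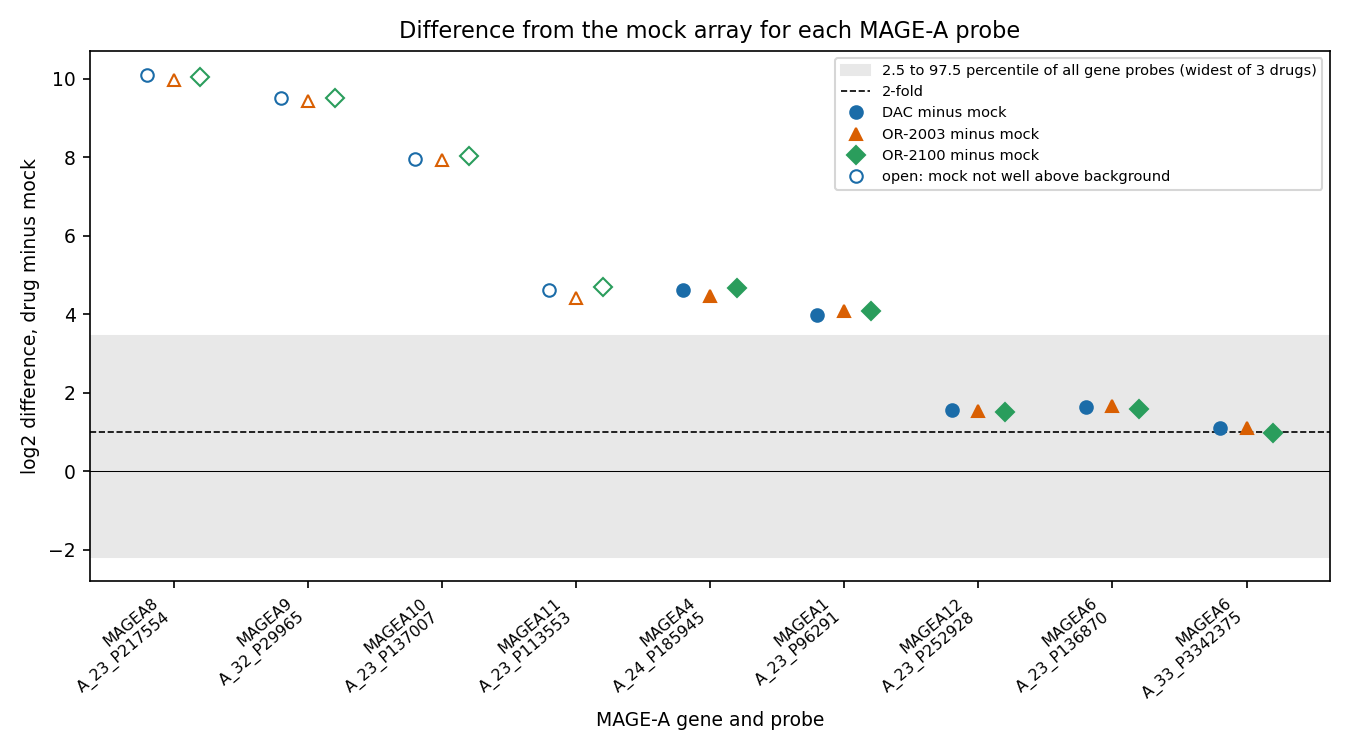
Log2 difference from the mock array for each MAGE-A probe (1 symbol per drug), with the 2-fold line and, in grey, the central 95% of all gene probes, from -2.18 to 3.44 at its widest over the drugs. MAGEA8, MAGEA9, MAGEA10, MAGEA11, MAGEA4 and MAGEA1 lay above the grey range with each drug and MAGEA12 and MAGEA6 inside it, and open symbols stand for probes without measured signal with mock.

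Near copies and RNAs from the opposite strand were measured by other probes. MAGEA2B, a near copy of MAGEA2, had 2 probes and both were induced by all 3 drugs. Its probe A_23_P148255 had levels of 5.26, 6.40, 6.42 and 6.35, with differences of 1.14, 1.16 and 1.09. The other, A_33_P3411165, had levels of 0.18, 2.84, 2.88 and 2.92, with differences of 2.66, 2.70 and 2.73. In MAGEA6 and in MAGEA2B alike, the 2 probes of a gene differed in the size of the difference, more so in MAGEA2B. Which copies each probe detects was not tested.

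MAGEA4-AS1, an RNA named as antisense to MAGEA4, was not well above background with mock in either of its 2 probes and was induced by all 3 drugs. Probe A_33_P3407863 had levels of -4.35, 2.24, 2.41 and 2.58 and was at least 92.4-fold, 104-fold and 117-fold higher with the drugs. Probe A_22_P00006831 had levels of -6.26, 1.00, 1.01 and 1.41 and was at least 38.9-fold, 39.4-fold and 51.7-fold higher. The nearest annotated starts of MAGEA4 and MAGEA4-AS1 lie 1391 bases apart. MAGEA8-AS1 was 1.32, 1.31 and 1.29 higher on the log2 scale than on the mock array, but reached only -1.75, -1.76 and -1.78 on the drug arrays and was not called. A further 6 probes that the array names as long non-coding RNAs of MAGE-A loci were induced by no drug. The backgrounds over all probes were 3.44%, 3.53% and 3.50%, from which 6 probes do not stand apart.

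The order of the 3 drugs was then compared within the family at the matched dose and day, over 3 pairs of arrays and without the mock array. Over the 9 probes, OR-2003 minus DAC had a median of -0.041 and ranged from -0.20 in MAGEA11 to 0.097 in MAGEA1. OR-2100 minus DAC had a median of 0.0063, from -0.13 in the brighter MAGEA6 probe to 0.095 in MAGEA1. OR-2100 minus OR-2003 had a median of 0.081, from -0.15 in that MAGEA6 probe to 0.29 in MAGEA11. Neither sign prevailed throughout, since 3, 5 and 5 of the 9 probes were above 0 in these pairs.

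For comparison, the central 95% of the 17865 positive probes ran from -0.22 to 0.23 for OR-2003 minus DAC, from -0.29 to 0.32 for OR-2100 minus DAC and from -0.30 to 0.31 for OR-2100 minus OR-2003. All 9 member probes lay inside it in every pair. The only error that could be measured was that between spots of 1 probe on 1 array, from 300 probes with 10 spots each. At positive levels its SD had a median of 0.064 over the arrays, or 0.090 for a difference of 2 spots, and it holds no difference between cultures. The drug arrays differed by less than 0.090 in MAGEA9, MAGEA10, MAGEA12 and the second MAGEA6 probe, by 0.048 at most in MAGEA12, while MAGEA4 with OR-2003 lay 0.14 lower than with DAC. A difference of this size between cultures could not be assessed with 1 array per drug, and these values do not show that the 3 drugs act alike. Outside the members, and picked after its values were seen, MAGEA4-AS1 was 0.41 and 0.33 higher with OR-2100 than with DAC in its 2 probes, both above the central 95%, where MAGEA4 itself was 0.05 higher.

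**Figure D3:**
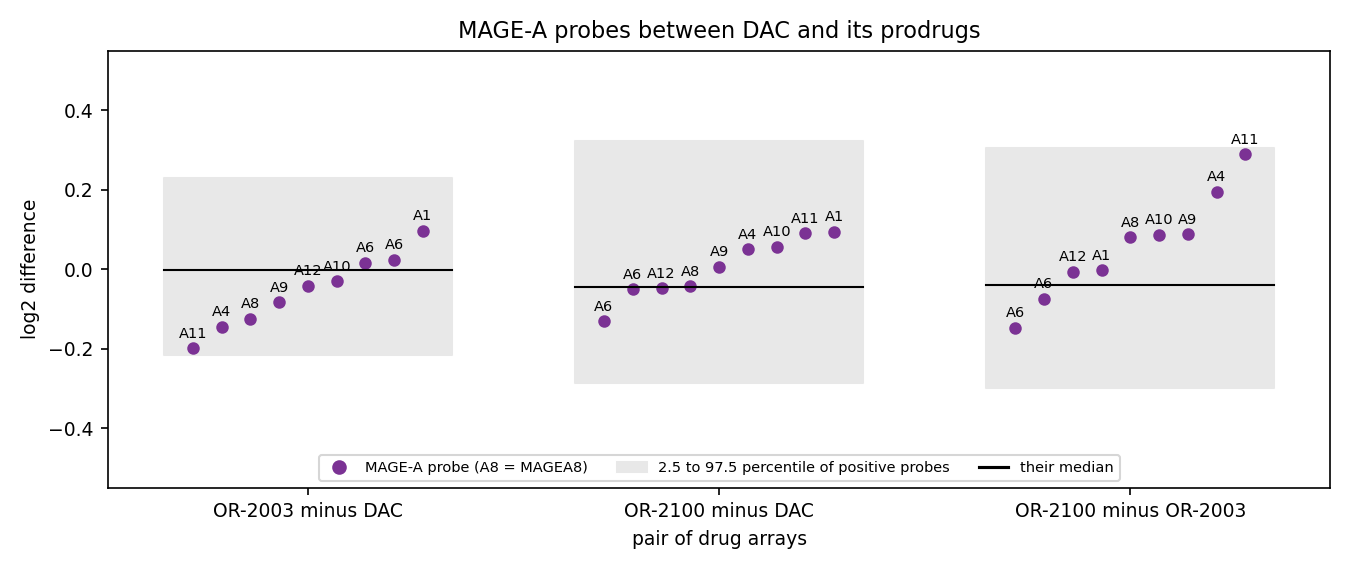
Log2 differences between the drug arrays for the 9 MAGE-A probes (points, A8 = MAGEA8) in 3 pairs, with the central 95% of 17865 positive probes in grey and their median as a line. All points lay inside the grey ranges, and MAGEA11 was lowest in OR-2003 minus DAC and highest in OR-2100 minus OR-2003.

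Genes that lie between or beside the members show how far the differences extended along the chromosome. Of 35 neighbour symbols listed, 30 were measured, and 4 were induced by each drug and by all 3, beside the background of 5.27% for all 3. These were PASD1, GABRE, PNMA5 and PNMA6A. PASD1, itself a cancer-testis gene, had levels of -6.42, 2.08, 1.99 and 1.93 and was at least 82.3-fold, 77.7-fold and 74.5-fold higher. PNMA5 had levels of -1.05, 5.73, 5.79 and 5.67, which are differences of 6.77, 6.84 and 6.72. PNMA6A was at least 21.3-fold, 19.3-fold and 20.4-fold higher. GABRE, a subunit of the GABA-A receptor that lies beside MAGEA4, had differences of 1.29, 1.25 and 1.42. The other 26 genes were not called, and 20 of the 30 were well above background on all 4 arrays. Among the genes not called, GABRQ and GABRA3 were well above background with each drug but not with mock, and stayed under -1. GABRQ was at least 3.44-fold, 3.49-fold and 4.38-fold higher. GABRA3 was at least 2.20-fold, 1.72-fold and 1.47-fold higher, but its sign depended on the scaling. The median difference of the neighbours was -0.14 with DAC, 0.11 with OR-2003 and -0.17 with OR-2100. These medians include 4 genes that were well above background on no array. The OR-2003 median lies between MTM1 (0.18) and CNGA2 (0.03), which is 1 of those 4. Its sign is therefore not a measured difference between the drugs. When arrays were scaled to the 75th percentile of the probes well above background, the count of induced neighbours was 2 with each drug, and when they were scaled to their median it was 6, 5 and 6. The level of -1 was kept in both, while the zero of each array moved. In the first of these scalings the 4 called genes differed more from mock, as GABRE with 1.49, 1.45 and 1.64. The lower count thus came from the level of -1 and not from smaller differences.

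The nearest neighbours of the weakly induced members are the CSAG genes, which lie among MAGEA2B, MAGEA12, MAGEA2 and MAGEA6. CSAG1 starts 36 bases from the nearest start of MAGEA12, the first, and its window shares 240 bases with that of the second MAGEA12 start. CSAG1 had levels of 4.87, 4.65, 4.69 and 4.64, while MAGEA12 was more than 2-fold higher with every drug. The CSAG1 differences were -0.22, -0.18 and -0.23, and their sign was not stable, with 0.023 for OR-2003 under scaling to the probes well above background and 0.015 for OR-2100 under quantile normalization. CSAG3, which starts 37 bases from MAGEA2, was lower with each drug, with differences of -0.87, -0.85 and -0.72. CSAG4 had differences of -0.38, -0.46 and -0.42. CSAG3 and CSAG4 were lower in every scaling that was run, and none of the 3 CSAG genes was induced. All the measured genes of these lists from MAGEA2B to MAGEA6 along the chromosome were thus at positive levels in mock-treated cells. MAGEA11, MAGEA9 and MAGEA8, the first members in that order, were not well above background there. Neither was MAGEA10, which lies between MAGEA4 and MAGEA2B. MAGEA4 and, beyond MAGEA6, MAGEA1 were at low positive levels, so the family did not split into a silent and an expressed end.

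**Figure D4:**
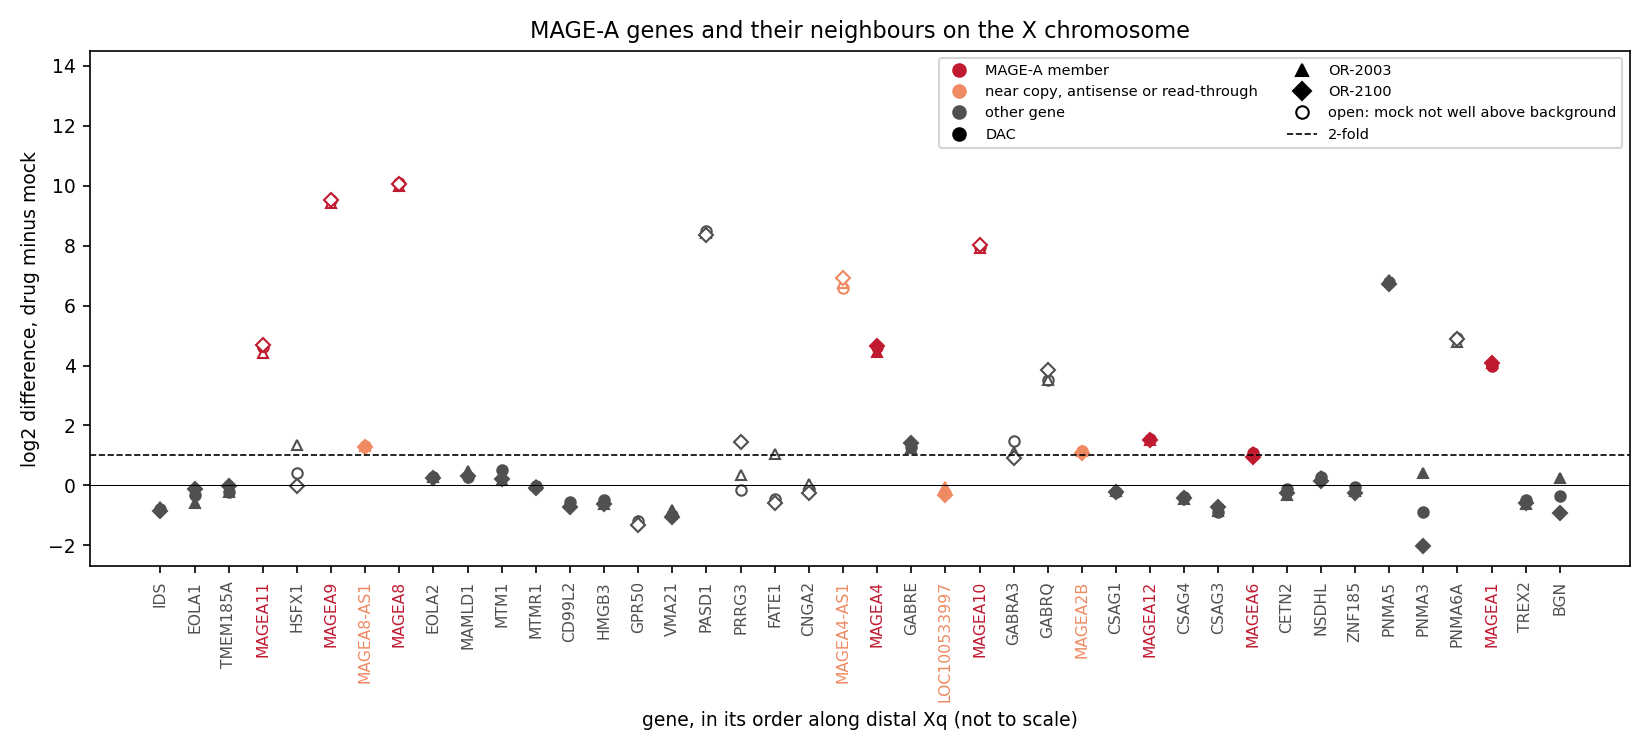
Log2 difference from the mock array of the MAGE-A genes (red), near copies, antisense and read-through RNAs (orange) and other genes (grey) in their order along the distal long arm of chromosome X, not to scale, with the 2-fold line dashed and open symbols where the mock array was not well above background. Some MAGE-A genes lay above genes beside them that differed little, such as MAGEA12 beside CSAG1. Others lay under the gene beside them, as MAGEA1 beside PNMA6A and MAGEA4 beside MAGEA4-AS1. PASD1, PNMA5 and PNMA6A were the grey genes with differences above 4.

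Other genes of the MAGE superfamily are transcribed in many tissues and served as relatives outside the cancer-testis group. Of 13 symbols, 11 were measured and 4 were induced by all 3 drugs, beside a background of 5.27% of all named genes. Among the 8 measured MAGE-A genes the count was 7. The medians of these relatives were 0.81, 0.80 and 0.84. TRO (trophinin), with levels of -6.13, 1.94, 1.92 and 2.04, was at least 74.7-fold, 73.9-fold and 80.2-fold higher. NDN (necdin), an imprinted gene, was at least 16.7-fold, 20.1-fold and 15.7-fold higher. MAGEH1 was at least 16.4-fold, 17.8-fold and 16.4-fold higher, and MAGED4B had differences of 4.05, 3.94 and 4.17. MAGED1 had differences of -0.64, -0.75 and -0.72, and MAGEF1 of -0.55, -0.57 and -0.61. MAGED2, at 0.81, 0.82 and 0.84, was higher with all drugs but under 2-fold. The relatives thus included genes with differences as large as those of some MAGE-A genes and genes that were lower than mock. None reached the bounds of MAGEA8, MAGEA9 or MAGEA10.

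Known protein partners of MAGE-A were read next. Of 10 measured, 0 were induced by any drug, beside a background of 5.77%, 5.89% and 5.81% for the single drugs, from which 10 genes do not stand apart, and the medians were -0.35, -0.42 and -0.41. TRIM28 had differences of -0.22, -0.28 and -0.30, and stood at a level of 5.32 on the mock array. PRKAA1, the AMPK subunit degraded through TRIM28 with MAGEA3 or MAGEA6, was lower by 2-fold or more with each drug, at -1.13, -1.55 and -1.38, but was under 2-fold with every drug after normexp (-0.73, -0.98 and -0.93), and PRKAA2 had differences of -0.08, -0.31 and -0.13. MDM4 had -1.19, -1.08 and -0.97, and MDM2, a ubiquitin ligase, had 0.15, 0.19 and -0.01. The deacetylases HDAC1 and HDAC3 had differences of -0.95, -0.97 and -1.0, and of -0.52, -0.53 and -0.73. SNW1, an adaptor of Notch transcription, had -0.47, -0.53 and -0.51, and PSMD10 (gankyrin) had 0.16, -0.02 and -0.04. The signs of MDM2, PSMD10, RAD18 and PRKAA2 depended on the scaling.

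Among 15 genes known or proposed to act on MAGE-A promoters, 2 were induced by all 3 drugs. The background was 5.27% of all named genes, from which so few genes do not stand apart. The medians of the list were -0.30, -0.27 and -0.48. CTCFL (BORIS), a germ cell paralogue of CTCF and itself a cancer-testis gene, had levels of -6.58, 0.50, 0.28 and 0.60 and was at least 27.5-fold, 23.7-fold and 29.6-fold higher. MBD1, a reader of methylated DNA, had differences of 1.75, 1.91 and 1.77. SP1, an activator that binds GC-rich promoters, was 2-fold or more lower with each drug, at -1.39, -1.39 and -1.45, and SP3 had -0.04, -0.11 and -0.07.

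Of the ETS factors in that list, ETS1 was well above background only with the drugs, at levels of -2.43, -2.72 and -2.46, and was not called. ETS2 had differences of -0.94, -0.88 and -0.80, ELK1 of -0.66, -0.69 and -0.66 and GABPA of -0.66, -0.69 and -0.80. The methyltransferase DNMT1 had differences of -0.30, -0.18 and -0.38, DNMT3A of 0.19, 0.12 and 0.23 and DNMT3B of -0.28, -0.27 and -0.23. UHRF1, which guides DNMT1 to replicated DNA, had -0.16, -0.25 and -0.52, and HELLS had -0.55, -0.59 and -0.48. CTCF had -0.44, -0.37 and -0.53. The signs of SP3, DNMT1, DNMT3A and UHRF1 depended on the scaling. Among these genes, CTCFL alone went from background to a positive level as MAGEA8, MAGEA9, MAGEA10 and MAGEA11 did.

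Markers of cell types were read beside these results. Of 10 markers of colon epithelium, 7 were well above background on all 4 arrays, CEACAM5 and CEACAM6 on none and VIL1 only with the drugs. The median difference of the list was 0.11, 0.02 and 0.08. KRT8 had differences of 0.59, 0.59 and 0.47, KRT18 of 0.59, 0.52 and 0.46 and KRT19 of 0.38, 0.31 and 0.32. EPCAM was 2-fold or more lower with each drug, at -1.49, -1.52 and -1.46. CDH1 had -1.09, -1.18 and -1.25, which was under 2-fold for DAC and OR-2003, at -0.89 and -0.98, with scaling to the probes well above background. The summed signal of this list, in units of the 75th percentile, was 1308 with mock and 1686, 1617 and 1589 with the drugs. This sum lies mainly in KRT19 and KRT18, at levels of 9.34 and 8.78 on the mock array, and does not describe the list as a whole. Of 8 measured germ cell markers, DAZL, SYCP3, STRA8 and DDX4 were induced by all 3 drugs, beside a background of 5.27%. The list of 8 summed to 1.39 with mock and to 10.2, 9.08 and 10.0 with the drugs. The other 4 were induced by no drug. ACR was lower with each drug, at -0.54, -0.57 and -0.61. PRM2 had differences of -0.23, 0.04 and -0.96, and TNP1 was well above background on the mock array only. The sperm gene PRM1 was at background on all arrays. Of 7 measured markers of other cells, VWF alone was induced by all 3 drugs, and the list summed to 2.69, 6.14, 5.99 and 6.47. A count of 1 does not stand apart from the background of 5.27%. PECAM1 was at least 8.40-fold, 8.90-fold and 9.05-fold higher but stayed under -1, and COL1A2 was well above background only with the drugs. COL1A1 had differences of 0.83, 0.77 and 0.90, and PTPRC of -0.31, -0.27 and -0.16. COL3A1 was at background on all arrays. The part of these markers in the MAGE-A result was not tested.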

How the data were processed

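RNA of 4 cultures was measured, 1 per condition, on 4 arrays of 1 slide read in 1 scan run. The authors deposited the signal intensity of each spot, background-subtracted by Agilent Feature Extraction 12.1.0.3 and not scaled between arrays. Of 60901 gene spots, 0 were saturated, and spots marked as non-uniform or as outliers were left out (0 of the member probes, which have 1 spot each). The log2 intensity was averaged by probe (58201 probes), and each array was then shifted so that its 75th percentile over gene probes was 0, as in the methods of the study. A probe was well above background where more than 0.5 of its unmarked spots were. Probes were named through RefSeq accessions (34892 probes, 25006 genes), and a gene takes its probe with the highest mean signal. The array design follows another build than the RefSeq annotation, which served for names, gene order, promoter windows and distances between starts.

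Members, lists and the rule for named genes (all members and their copies, the listed genes, and the 5 genes most like the family) were chosen with earlier results of these data known. Some genes of the lists are not reported here and were left out of the list counts and medians. Reduced means at least 2-fold lower than mock with -1 or more on the mock array. No test was run between conditions, since the number of arrays (1 per treatment) limits the precision. Alternatives were the series table, normexp with an offset of 50 on median spot and background intensities (deposited columns), quantile normalization, other scalings, a floor, marked spots kept, a 4-fold threshold, level thresholds of 0 or none, averages over the probes of 1 gene and genes measured on all arrays. Python 3.11.15, numpy 2.4.6, pandas 2.3.3, matplotlib 3.10.9, R 4.3.3 and limma 3.58.1 were used.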

Additional observations from a re-analysis of the deposited data

How the results depend on the processing

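All 27 differences of a member probe from the mock array were above 0 in every setting that recomputed them. The size of the family median depended on the background. With normexp it was 3.64, 3.61 and 3.65 for DAC, OR-2003 and OR-2100, and MAGEA8 then had 5.15, 5.06 and 5.14 and MAGEA11 1.65, 1.55 and 1.80, and the cause was not tested. With a floor at the background limit the medians were 4.51, 4.34 and 4.58, and over the genes well above background on all arrays 2.77, 2.80 and 2.80. Scaling to the 75th percentile of the probes well above background moved the median of all probes by 0.20, 0.20 and 0.22, the family medians to 4.80, 4.63 and 4.90, and the induced neighbours to 2, 2 and 2 from 4 each. The neighbours no longer counted had larger differences than before but did not reach -1 on the moved scale. Scaling to the median moved all probes by -0.12, -0.22 and -0.088 and gave family medians of 4.49 for DAC and 4.21 for OR-2003, and medians of -0.17 for OR-2003 minus DAC and 0.22 for OR-2100 minus OR-2003. Counts of induced members stayed between 6 and 8 in all settings, and a 4-fold threshold gave 6, 6 and 6 without MAGEA6 and MAGEA12. A level threshold of 0 left out MAGEA11 for OR-2003. The series table held the same values, and quantile normalization, marked spots kept and the mean of probes kept each of these medians within the spread between spots. No paired analysis was possible because every treatment has 1 array, and for the same reason no replicate could be left out. Signals under the background limit, as on the mock array for 4 members, have no measured size.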

Other observations

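The named genes outside MAGE-A whose levels on the 4 arrays lay nearest to the median profile of the 8 MAGE-A genes (-2.44, 4.15, 4.12 and 4.22 on the mock, DAC, OR-2003 and OR-2100 arrays, with dim values raised to the background limit) were COX8C, CBS, KRABD3, HCLS1 and CCK, at Euclidean distances of 0.869, 0.990, 1.08, 1.09 and 1.15 over the 4 arrays. COX8C, a testis form of a cytochrome c oxidase subunit, had levels of -2.49, 4.54, 4.76 and 4.66. CBS, an enzyme of homocysteine metabolism, had -2.83, 3.64, 3.57 and 3.70. HCLS1, a signalling protein of blood cells, had -1.45, 4.39, 4.43 and 4.44. CCK, the gut and brain peptide cholecystokinin, had -1.90, 4.65, 4.86 and 4.71, and KRABD3 had -2.21, 3.51, 3.59 and 3.56. Levels of different probes are not comparable as amounts of RNA, so the distance compares positions on these arrays only, and the mock value of the median profile lies between members at the background limit and MAGEA4 (-0.60), at a level that no member had.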
